A study of Mus musculus with 27 samples.

Results

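Whether genes respond to the culture medium alike with and without Rxra was asked of 8 bulk RNA-seq libraries, chosen by their labels from the 27 samples of the series. The libraries came from hair follicle stem cells (HFSCs), the cells that rebuild the follicle, taken from back skin of mice in telogen, the resting stage, at postnatal day 55. HFSCs of wild-type mice were set beside HFSCs of Rxra cKO mice (Sox9-CreER;Rxra-fl/fl;Rosa26-YFP), in which an inducible Cre under the Sox9 promoter removes part of Rxra in Sox9-expressing cells. Lines were established on feeder cells in serum medium and then grown in 3D droplets of basement membrane extract, either in FBS, the serum medium, or in atRA+PKCi, a serum-free B-27 medium that holds cholesterol, all-trans retinoic acid (atRA) and the protein kinase C inhibitor Go6976, with the ROCK inhibitor Y-27632 in both. Each of the 4 groups held 2 libraries, which the labels give as mouse 1 and mouse 2 in each genotype, with the same mouse numbers in both media. The medium effect covers the loss of serum, the supplement, cholesterol, atRA and Go6976 together, and with 2 lines per genotype the effect of Rxra and a difference between lines cannot be told apart.

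RXRα is a nuclear receptor that binds DNA mainly as the partner of other nuclear receptors, among them the retinoic acid receptors (RARs), the LXR and PPAR lipid sensors and the thyroid hormone and vitamin D receptors. On retinoic acid response elements, RAR and RXR sit on a direct repeat of a short motif, and binding of atRA by RAR exchanges corepressors for coactivators. In skin, retinoids are known for restraining the terminal differentiation of keratinocytes, in which basal cells leave the cell cycle, switch from keratins 5 and 14 to keratins 1 and 10, and build the cornified envelope and its lipids.

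For each of 15965 genes tested, the response is the log2 ratio of atRA+PKCi to FBS within a genotype, and the interaction is the wild-type response minus the Rxra cKO response, both given ± SE from 2 libraries per group. A positive interaction means that the medium raised the gene more, or lowered it less, in wild-type HFSCs. The interaction passed an edgeR adjusted p of 0.05 for 3924 genes (24.6%), of which 1807 (11.3%) were positive and 2117 (13.3%) negative. The positive count was 1121 without wild-type atRA+PKCi replicate 2, 1125 without Rxra cKO FBS replicate 1, 981 without Rxra cKO atRA+PKCi replicate 1 and 950 without Rxra cKO atRA+PKCi replicate 2. With library totals alone in place of TMM scaling, which moved the median interaction of all genes from 0.01 to 0.14, the split was 2392 positive and 1463 negative. In the single contrasts that it combines, the medium raised 4350 genes (27.2%) and lowered 4249 (26.6%) in wild-type HFSCs, against 3319 (20.8%) and 3542 (22.2%) in Rxra cKO HFSCs.

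Each gene was then placed by its 3 tests. A wild-type response was called lost when the interaction passed and the cKO response did not, which held for 706 raised genes (4.42% of those tested) and 735 lowered genes (4.6%). It was called reduced when the cKO response also passed in the same direction, which held for 408 raised (2.56%) and 843 lowered genes (5.28%). It was called reversed when the cKO response passed in the opposite direction, which held for 183 genes raised in wild-type (1.15%) and 180 lowered (1.13%). Enlarged responses, larger in the cKO, were fewer, at 71 raised (0.445%) and 128 lowered genes (0.802%). A further 257 genes rose (1.61%) and 355 fell (2.22%) in the cKO alone. Responses that passed in both genotypes with no interaction call, termed kept, held for 1768 raised (11.1%) and 1516 lowered genes (9.5%). The remaining wild-type responses, 1214 raised (7.6%) and 847 lowered (5.31%), passed neither in the cKO nor by the interaction and stay undecided, and 58 genes (0.363%) had other patterns. Lost, reduced and reversed genes together made up 41.4% of the genes that wild-type HFSCs lowered and 29.8% of those they raised.

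**Figure D1:**
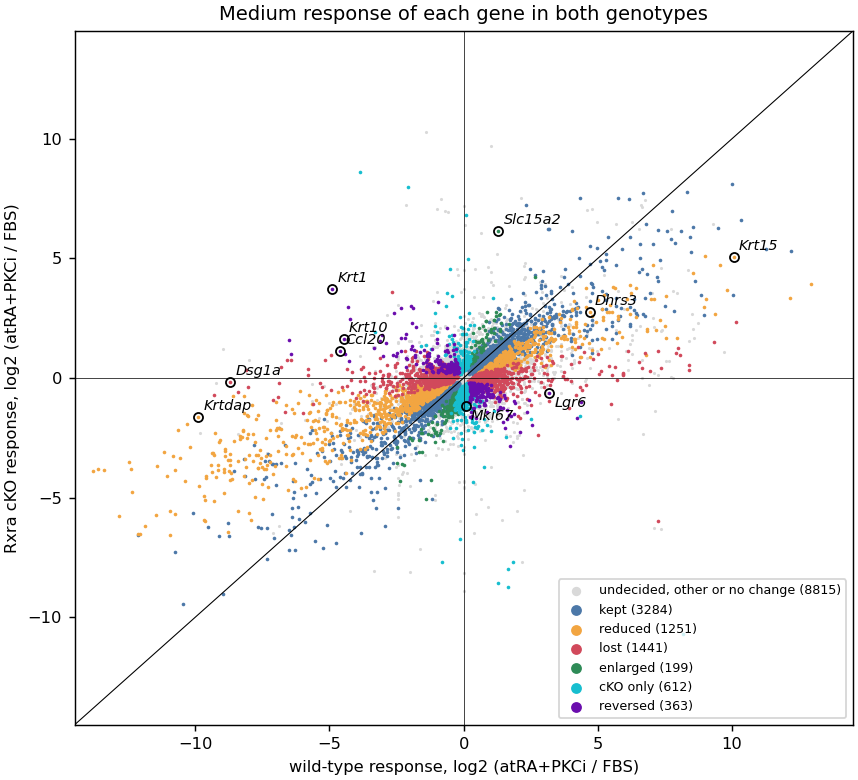
Response to atRA+PKCi of each tested gene in wild-type (x axis) and Rxra cKO HFSCs (y axis), both as log2 of atRA+PKCi over FBS, colored by class with the number of genes in brackets; the diagonal marks equal responses. Reduced genes (orange) lie between the diagonal and the horizontal line of no cKO response, most visibly among genes that wild-type HFSCs lowered, and reversed genes (purple) lie in the upper left and lower right, as do Krt1, Krt10, Ccl20 and Lgr6.

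Kept does not mean equal: for 870 of the 1768 raised and 899 of the 1516 lowered genes, together 53.9%, the 95% interval of the interaction lay within 1.5-fold either way. That interval reached a median of 0.416 to either side of the estimate over all genes tested. It is not adjusted for the number of genes, so a call for the median gene needed a difference in response larger than that. Total estimated counts ran from 25150265 to 35879777 per library, and log2 levels of the 2 libraries of a group correlated at 0.994 to 0.997 across genes. The fibroblast marker list, checked because of the feeder cells, summed to 816 and 824 CPM (counts scaled to a common library size) in FBS and 532 and 528 in atRA+PKCi for wild-type, and to 623 and 599 in FBS and 454 and 469 in atRA+PKCi for Rxra cKO, nearly all of it Sparc. Of the 16 of its 20 genes that were tested, 3 had a negative and 1 a positive interaction (25%, near the 24.6% of all genes). The negative count was lower without wild-type FBS replicate 1, Rxra cKO FBS replicate 1 or Rxra cKO atRA+PKCi replicate 1. Col1a1, Col1a2, Col3a1 and Dcn were under 4 CPM in every library, and Lum was at 0 throughout; the part of feeder RNA in the results was not tested. Among HFSC markers, Lgr5 and Lhx2 had at most 5 counts in any library, and Krt15 was low in the FBS libraries. The name HFSC is therefore taken from the labels of the samples. Of the 16 HFSC markers tested, 4 rose and 10 fell in wild-type. By the interaction, 5 were positive and 5 negative (62.5%, against 24.6% of all genes). The positive count was lower whichever library was left out, and was 4 by DESeq2. The negative count was higher without wild-type FBS replicate 2 and lower without Rxra cKO FBS replicate 2 or Rxra cKO atRA+PKCi replicate 1.

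The targeted gene itself came first. Rxra (chr2:27676440-27762957 in GRCm38, by GENCODE M21) stood at 149 and 122 CPM in FBS and 147 and 143 in atRA+PKCi for wild-type, and at 97.2 and 95.7 in FBS and 148 and 145 in atRA+PKCi for Rxra cKO. The level in Rxra cKO HFSCs lay below both wild-type libraries in FBS and overlapped with them in atRA+PKCi. Its interaction was -0.51 ± 0.13, edgeR adjusted p = 0.022, and it was no longer called without Rxra cKO FBS replicate 2 (adjusted p = 0.065), without Rxra cKO atRA+PKCi replicate 1 (adjusted p = 0.058) or with library totals in place of TMM scaling (adjusted p = 0.10). Counts per gene include exons that the deletion leaves in place, so this level does not show how much of the floxed part was lost.

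Genes that handle retinoids responded unevenly. Of 17 measured genes of retinoid uptake, binding and metabolism, 5 had a positive and 7 a negative interaction (70.6%, against 24.6% of all genes). With calls in both directions, their median interaction was 0.01, against 0.01 over all genes tested. The 5 positive calls fell to 3 without either of the Rxra cKO atRA+PKCi libraries. Of 11 receptors and cofactors, 1 was called in each direction (18.2%).

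Dhrs3 (chr4:144892827-144928209), a retinaldehyde reductase that lowers atRA synthesis and is a standard readout of RAR activity, stood at 7.88 and 6.53 CPM in FBS and 191 and 183 in atRA+PKCi for wild-type, and at 11.9 and 13.3 in FBS and 83.8 and 84.9 in atRA+PKCi for Rxra cKO. Both genotypes separated the media without overlap, and the rise was smaller in the cKO. The response was 4.69 ± 0.10 in wild-type and 2.74 ± 0.09 in Rxra cKO HFSCs, with an interaction of 1.95 ± 0.13, edgeR adjusted p = 2.7e-05. Cyp26b1 (chr6:84571414-84593908), which degrades atRA, stood at 27.9 and 21 CPM in FBS and 72.6 and 69.5 in atRA+PKCi for wild-type, and at 14.8 and 16 in FBS and 14.7 and 13 in atRA+PKCi for Rxra cKO. The wild-type media lay far apart, while the 4 cKO libraries lay close together and below all wild-type libraries. The interaction of Cyp26b1 was 1.69 ± 0.18, edgeR adjusted p = 3.2e-04, a lost response. Stra6, the cell-surface receptor for retinol bound to its carrier, stood at 69.2 and 65.5 CPM in FBS and 297 and 253 in atRA+PKCi for wild-type, and at 63.2 and 68.4 in FBS and 225 and 218 in atRA+PKCi for Rxra cKO. Its responses of 2.03 and 1.75 were both called, and the interaction of 0.28 ± 0.13 was not (edgeR adjusted p = 0.15), with a 95% interval of -0.01 to 0.56. In atRA+PKCi both cKO libraries of Stra6 lay below both wild-type libraries.

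The rise of Nrip1, a corepressor that atRA induces, was reduced, at 154 and 136 CPM in FBS and 362 and 385 in atRA+PKCi for wild-type, against 126 and 121 in FBS and 164 and 158 in atRA+PKCi in the cKO (interaction 0.98 ± 0.11, edgeR adjusted p = 4.0e-04). Genes that the medium lowered in wild-type also responded less. Rbp2, the intestinal-type retinol-binding protein, went from 48.2 and 53.2 CPM in FBS to 6.13 and 6.18 in atRA+PKCi in wild-type and from 10.1 and 15 to 12.7 and 12.6 in the cKO, a lost response (interaction -3.05 ± 0.23, edgeR adjusted p = 4.2e-05). Rdh11, a retinal reductase, was reduced (-1.92 against -0.72, interaction -1.20 ± 0.09, edgeR adjusted p = 5.0e-05). Aldh1a3, which makes atRA from retinal, had responses of -6.93 in wild-type and -3.04 in the cKO on the log2 scale, a reduced fall, but the fall was larger in the cKO in CPM, from 297 and 364 to 41.7 and 38.3 against 56.4 and 68.8 to 0.641 and 0.380. The receptor genes Rara, Rarg and Rxrb had interactions of 0.02, -0.08 and -0.11, none of them called, with 95% intervals of -0.44 to 0.48, -0.41 to 0.26 and -0.35 to 0.14.

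Promoters of these genes were read from RefSeq for GRCm38.p6, as windows of 250 bases before to 50 after each start, to show what a retinoic acid response element looks like beside its expression value. The pattern searched, on both strands, was a direct repeat with a spacing of 5 bases (DR5), in any of the forms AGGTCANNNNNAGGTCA, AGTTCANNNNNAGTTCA, GGGTCANNNNNGGGTCA and GGTTCANNNNNGGTTCA or in a mix of their copies. It was present in 32 of 32851 windows (0.0974%), in 8 of the 10629 tested genes matched to a window by symbol and in 4 of the 2966 with a called interaction (0.135%), namely Gm14133, Ppbp, Prokr2 and Prss27. Among the retinoid genes it was present in the windows of Rarb and Cyp26a1. The windows of these 2 and of Ppbp, the one called gene of the 4 with a mean of at least 10 CPM, are printed 5′ to 3′ along the gene with the DR5 match in capitals; the match in Cyp26a1 and Ppbp is on the opposite strand.
Rarb (chr14:16575427-16575726, minus strand): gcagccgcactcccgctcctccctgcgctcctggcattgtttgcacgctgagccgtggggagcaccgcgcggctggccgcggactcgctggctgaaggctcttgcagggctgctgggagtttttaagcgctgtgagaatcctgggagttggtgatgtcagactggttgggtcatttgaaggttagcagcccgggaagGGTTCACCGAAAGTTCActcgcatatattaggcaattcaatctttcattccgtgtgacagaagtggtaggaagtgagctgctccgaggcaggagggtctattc
Cyp26a1 (chr19:37697558-37697857, plus strand): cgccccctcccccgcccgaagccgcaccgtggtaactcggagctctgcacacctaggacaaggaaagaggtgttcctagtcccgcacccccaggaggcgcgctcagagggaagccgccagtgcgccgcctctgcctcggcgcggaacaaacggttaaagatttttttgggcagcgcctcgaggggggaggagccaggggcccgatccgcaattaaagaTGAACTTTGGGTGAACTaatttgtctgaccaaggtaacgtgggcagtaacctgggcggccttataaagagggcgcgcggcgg
Ppbp (chr5:90768268-90768567, plus strand): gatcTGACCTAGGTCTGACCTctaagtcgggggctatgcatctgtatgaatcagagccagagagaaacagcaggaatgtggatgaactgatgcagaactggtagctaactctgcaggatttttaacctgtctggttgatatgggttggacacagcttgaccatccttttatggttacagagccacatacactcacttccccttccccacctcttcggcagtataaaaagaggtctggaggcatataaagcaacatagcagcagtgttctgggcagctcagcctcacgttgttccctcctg
A match in these letters is a description and not a bound site, and a window without one says nothing of the receptor.

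The genes with the textbook elements had almost no transcript. Rarb stayed under 0.9 CPM in every library, with an interaction of 0.83 ± 1.11 (edgeR adjusted p = 0.63), and Cyp26a1 had no count in any of the 8 libraries, which allows up to 3 counts per library. Ppbp, a platelet-type CXC chemokine, was singled out after its values were seen and stood at 62.7 and 70 CPM in FBS and 83.1 and 82 in atRA+PKCi for wild-type, and at 709.6 and 797 in FBS and 232 and 268 in atRA+PKCi for Rxra cKO. It rose slightly in wild-type (0.31 ± 0.10) and fell in the cKO (-1.59 ± 0.10), with an interaction of 1.91 ± 0.14, edgeR adjusted p = 3.7e-05. All 4 cKO libraries lay above all 4 wild-type libraries, and in FBS the cKO was higher by 3.51 on the log2 scale.

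The clearest block of altered responses was terminal differentiation, and nearly all of its calls had one direction. Of 58 measured genes of the cornified envelope (loricrin, filaggrin family, small proline-rich and late cornified envelope proteins and their cross-linking enzymes), 52 had a negative and 2 a positive interaction, against 13.3% and 11.3% of all genes. By class, 47 were reduced from a wild-type fall, 3 lost, 1 reversed, and 4 of the others kept. The median response was -7.64 in wild-type and -2.77 in Rxra cKO HFSCs, with a median interaction of -4.49, against 0.03, 0.02 and 0.01 over all genes tested. With the 8 genes that were at 0 in a group set to 3 counts over that group, the 3 medians were -7.16, -2.75 and -4.19. By role, the median interaction ran from -5.46 over 20 late cornified envelope genes to -2.96 over 12 scaffold proteins.

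Kallikreins and epidermal protease inhibitors, which control the shedding of cornified cells, moved the same way. Of 24, 19 had a negative and 0 a positive interaction (79.2%, against 24.6% of all genes). Their median responses were -7.36 and -2.59 (-6.51 and -2.59 with 3 genes at the floor of 3 counts). Enzymes of barrier lipids followed, with 16 of 21 negative and 1 positive (81% called, median interaction -1.98). Exceptions within these lists were Slpi, a secreted protease inhibitor, and Ivl, which encodes involucrin. Slpi stood at 2219.8 and 2645 CPM in FBS and 134 and 136 in atRA+PKCi for wild-type, and at 1012 and 1310.1 in FBS and 78.1 and 71.4 in atRA+PKCi for Rxra cKO. It fell in both genotypes (-4.17 and -3.96), and its interaction of -0.21 ± 0.19 had a 95% interval of -0.64 to 0.21. Ivl stood at 226 and 277 CPM in FBS and 204 and 215 in atRA+PKCi for wild-type, and at 420.0 and 506 in FBS and 197 and 209.5 in atRA+PKCi for Rxra cKO. Its fall was called only in the cKO (-1.19, against -0.26), with an interaction of 0.92 ± 0.17, edgeR adjusted p = 0.0043. Tchh, trichohyalin, a fused S100 protein of the inner root sheath, was the reversed member, at 86.2 and 79.7 CPM in FBS and 13.7 and 13.1 in atRA+PKCi in wild-type and 17.3 and 21.8 and 38.3 and 37.4 in the cKO (interaction -3.58 ± 0.15, edgeR adjusted p = 3.2e-06).

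Krtdap, a keratinocyte differentiation peptide chosen after its values were seen, had the most negative interaction of the 12 scaffold proteins of the list, whose median was -2.96. It stood at 749 and 968 CPM in FBS and 0.802 and 0.982 in atRA+PKCi for wild-type, and at 222 and 313 in FBS and 88.5 and 82.4 in atRA+PKCi for Rxra cKO. In atRA+PKCi the cKO libraries lay below their FBS level, and the wild-type libraries lay near 1 CPM, with no overlap between any of the groups. Its interaction was -8.26 ± 0.32, edgeR adjusted p = 2.0e-06. Sdr9c7, a dehydrogenase that completes the lipid envelope, went from 58 and 66.5 CPM to 0.0962 and 0.190 in wild-type and from 27.2 and 31.5 to 2.51 and 2.98 in the cKO (interaction -5.29 ± 0.32, edgeR adjusted p = 1.4e-05). Near-identical copies such as Lce1a1 and Lce1a2, or the Sprr2a genes, share reads, and their separate values are uncertain.

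Desmosome genes, which join keratinocytes to each other, moved in the same direction. Of 16, 12 had a negative interaction and 0 a positive one (75%, against 24.6% of all genes). Of the 12, 5 were lost and 7 reduced. Median responses of the 16 were -1.74 in wild-type and -0.31 in the cKO. Dsg1a, a desmosomal cadherin of suprabasal cells, stood at 172 and 139 CPM in FBS and 0.321 and 0.412 in atRA+PKCi for wild-type, and at 46.3 and 63.4 in FBS and 52.6 and 43.6 in atRA+PKCi for Rxra cKO. The wild-type media lay far apart, and the cKO media overlapped. The response was -8.71 ± 0.28 in wild-type and -0.19 ± 0.16 in the cKO, with an interaction of -8.52 ± 0.34, edgeR adjusted p = 2.3e-06. Pkp1, a desmosomal plaque protein chosen after its values were seen, went from 2617 and 2324 CPM to 842 and 776 in wild-type and from 1173 and 1193 to 1191 and 1139 in the cKO (interaction -1.59 ± 0.12, edgeR adjusted p = 5.0e-05). Pkp4, a plakophilin-related protein of broader expression, was the member with the highest interaction, -0.03 ± 0.09, with a response that passed in neither genotype (95% interval of the interaction -0.23 to 0.17).

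**Figure D2:**
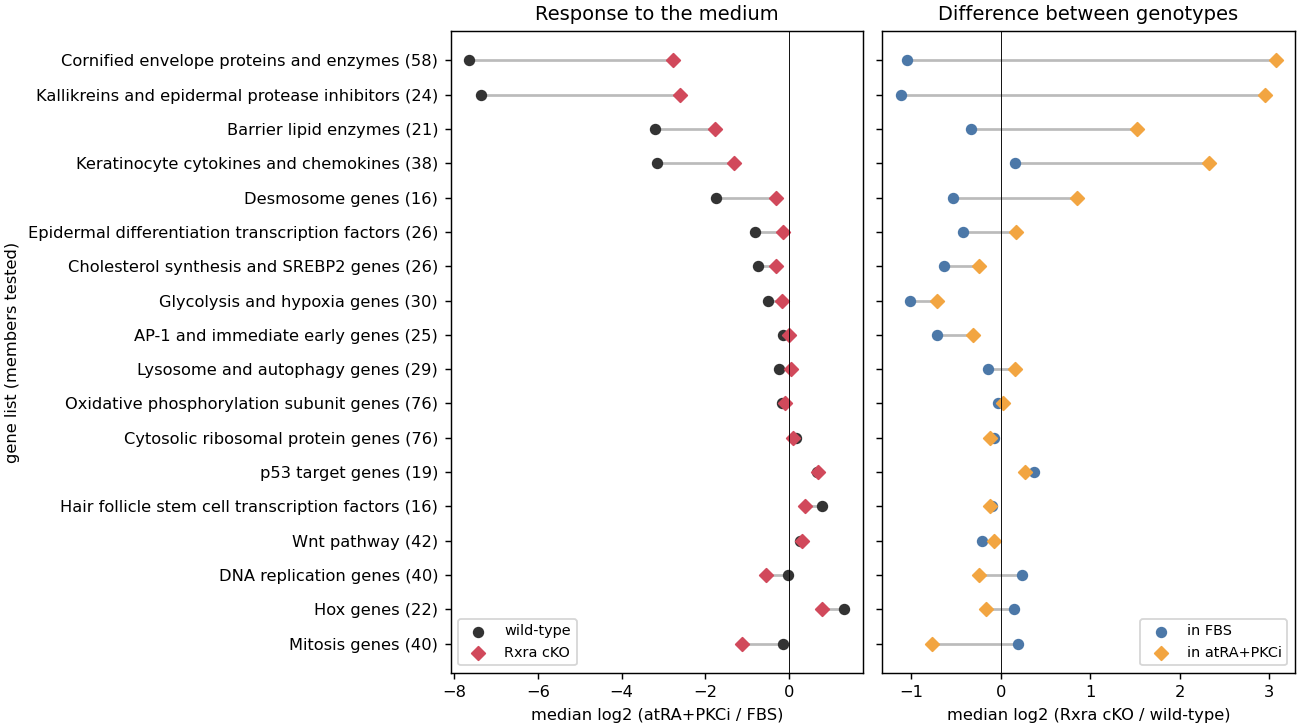
Median over the tested members of 18 gene lists (number in brackets) of the response to atRA+PKCi in each genotype (left, log2 of atRA+PKCi over FBS) and of the difference between genotypes in each medium (right, log2 of Rxra cKO over wild-type). The 5 lists at the top respond less in the cKO and stand higher in the cKO in atRA+PKCi, with cornified envelope genes at -1.04 in FBS and 3.07 in atRA+PKCi; mitosis genes at the bottom have median responses of -0.14 in wild-type and -1.12 in the cKO.

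Keratins were called in both directions. Of 13 tested keratins of suprabasal layers and of other epithelia, 4 had a positive and 6 a negative interaction (76.9%, against 24.6% of all genes). Of 3 basal keratins, 1 was positive and 2 were negative. Krt10 (chr11:99385254-99389364), the suprabasal type I keratin, stood at 153 and 127 CPM in FBS and 6.09 and 6.53 in atRA+PKCi for wild-type, and at 8.59 and 8.36 in FBS and 29.8 and 22.9 in atRA+PKCi for Rxra cKO. It fell in wild-type (-4.47 ± 0.15) and rose in the cKO (1.64 ± 0.14), with no overlap between media in either genotype and an interaction of -6.11 ± 0.21, edgeR adjusted p = 1.7e-06. Its partner Krt1 (chr15:101845426-101850794) stood at 10.5 and 9.77 CPM in FBS and 0.609 and 0.0634 in atRA+PKCi for wild-type, and at 3.02 and 2.88 in FBS and 43.4 and 33.5 in atRA+PKCi for Rxra cKO. The pattern was the same (-4.91 and 3.70, interaction -8.61 ± 0.51, edgeR adjusted p = 1.3e-05), and the highest levels of Krt1 in the 8 libraries were those of the cKO in atRA+PKCi. Among the basal keratins, Krt5 went from 12333 and 11952 CPM to 9262 and 9149 in wild-type and from 8958 and 9150.5 to 12311 and 12315 in the cKO, a reversed response of small size (interaction -0.84 ± 0.11, edgeR adjusted p = 7.9e-04). Krt14 fell from 20524 and 22349.9 CPM to 5718 and 5972 in wild-type and was at 11635 and 13390.1 in FBS and 11727 and 11666 in atRA+PKCi in the cKO, a lost response (interaction -1.78 ± 0.14, edgeR adjusted p = 5.1e-05).

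Of the 5 keratins of the first of these lists that rose in wild-type, 3 were reduced, 1 was reversed and 1, Krt8, was kept. Krt8, of simple epithelia, had responses of 2.75 and 1.09 and an interaction of 1.66 ± 0.60, edgeR adjusted p = 0.079, which was called with the mouse number as a block (adjusted p = 0.045). The third basal keratin, Krt15 (chr11:100131758-100135928), the keratin of the HFSC niche, stood at 3.65 and 4.75 CPM in FBS and 4576 and 4430.4 in atRA+PKCi for wild-type, and at 6.51 and 8.23 in FBS and 251 and 245 in atRA+PKCi for Rxra cKO. It rose strongly in both genotypes, by 10.07 and 5.07 on the log2 scale, and its interaction of 5.00 ± 0.19, edgeR adjusted p = 2.0e-06 left the cKO libraries far below the wild-type ones in atRA+PKCi. Krt13, a keratin of moist epithelia, did so too, at 93 and 80.1 CPM in wild-type atRA+PKCi and 4.19 and 4.88 in Rxra cKO atRA+PKCi, from at most 1.1 CPM in FBS (interaction 4.80 ± 0.26, edgeR adjusted p = 8.0e-06). Krt6b, a wound keratin near-identical to Krt6a, had responses of -8.24 in wild-type and -2.23 in the cKO (interaction -6.01 ± 0.18, edgeR adjusted p = 1.7e-06). Krt18, a keratin of simple epithelia, went from 27.8 and 33.1 CPM to 40.3 and 37.3 in wild-type and from 217 and 236 to 143 and 153 in the cKO, a reversed response with all cKO libraries above all wild-type ones (interaction 0.97 ± 0.13, edgeR adjusted p = 0.0012).

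Of 26 epidermal transcription factors, 15 had a negative and 2 a positive interaction (65.4%, against 24.6% of all genes). Their median responses were -0.81 in wild-type and -0.13 in the cKO. The negative count ran from 14 to 17 when each library was left out. Hopx, a homeodomain protein of upper layers, stood at 317 and 365 CPM in FBS and 2.18 and 2.34 in atRA+PKCi for wild-type, and at 234 and 284 in FBS and 29.7 and 25.4 in atRA+PKCi for Rxra cKO, and its fall was reduced (-7.23 against -3.23, interaction -4.01 ± 0.20, edgeR adjusted p = 5.6e-06). Zfp750 and Maf, factors of late differentiation, were reversed, falling in wild-type (-0.82 and -0.58) and rising in the cKO (0.49 and 0.41), and the interaction of Zfp750 was -1.31 ± 0.17, edgeR adjusted p = 8.5e-04. Id1, an inhibitor of differentiation, was reversed the other way (0.39 and -0.71, interaction 1.10 ± 0.11, edgeR adjusted p = 2.2e-04). Ehf, an epithelial ETS factor, rose in wild-type from 65.4 and 69.1 CPM to 163 and 164 and was at 63.7 and 76.1 in FBS and 79.2 and 71 in atRA+PKCi in the cKO, a lost response (interaction 1.18 ± 0.13, edgeR adjusted p = 3.9e-04).

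Signals by which keratinocytes talk to immune cells formed the next block. Of 38 measured cytokine, chemokine and antimicrobial genes, 28 had a negative and 1 a positive interaction (76.3%, against 24.6% of all genes). Their median responses were -3.15 in wild-type and -1.32 in the cKO. By class, 6 were lost, 20 reduced, 2 reversed and 6 kept among the genes that wild-type lowered. Ccl20 (chr1:83116766-83119167), which attracts CCR6-bearing lymphocytes, stood at 15.2 and 11.2 CPM in FBS and 0.577 and 0.507 in atRA+PKCi for wild-type, and at 14.3 and 16.6 in FBS and 34.8 and 32.8 in atRA+PKCi for Rxra cKO. The media did not overlap in either genotype, and the direction was opposite. The response was -4.60 ± 0.22 in wild-type and 1.13 ± 0.14 in the cKO, with an interaction of -5.72 ± 0.26, edgeR adjusted p = 4.2e-06. Cx3cl1, a membrane-bound chemokine, was the other reversed member (-0.61 and 1.38, interaction -1.98 ± 0.25, edgeR adjusted p = 7.3e-04). Il1f5, the receptor antagonist of the IL-36 family, was at 0.0321 and 0 CPM in wild-type atRA+PKCi and 6.94 and 5.36 in Rxra cKO atRA+PKCi, from 31.4 and 32.6 in wild-type FBS and 23.3 and 32.5 in Rxra cKO FBS. Cxcl1, a neutrophil attractant chosen after its values were seen, fell in both genotypes, from 449 and 462 CPM to 90.9 and 100.2 and from 362 and 373 to 80.8 and 81.9. Its interaction of -0.08 ± 0.10 had a 95% interval of -0.30 to 0.15, so a difference in response beyond that was not detected.

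Where the interaction of these blocks arose can be read from the same libraries by genotype, since the interaction equals the difference between genotypes in FBS minus that in atRA+PKCi. Over all genes, Rxra cKO HFSCs were higher than wild-type for 3565 genes (22.3%) and lower for 3275 (20.5%) in FBS, and higher for 3670 (23%) and lower for 3225 (20.2%) in atRA+PKCi. Of 58 cornified envelope genes, 7 were higher and 41 lower in the cKO in FBS, and 47 higher and 0 lower in atRA+PKCi, with median differences of -1.04 and 3.07. Cytokine and chemokine genes differed from this pattern in FBS, where 14 of 38 were higher and 11 lower (median 0.16), while in atRA+PKCi 32 were higher and 2 lower (median 2.33). The sum of the 11 keratinocyte marker genes went from 45230 and 45580 CPM to 19100 and 19340 in wild-type and from 28610 and 30900 to 29650 and 29390 in the cKO. In bulk cultures, fewer cells of a type and less RNA of a gene per cell cannot be told apart.

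**Figure D3:**
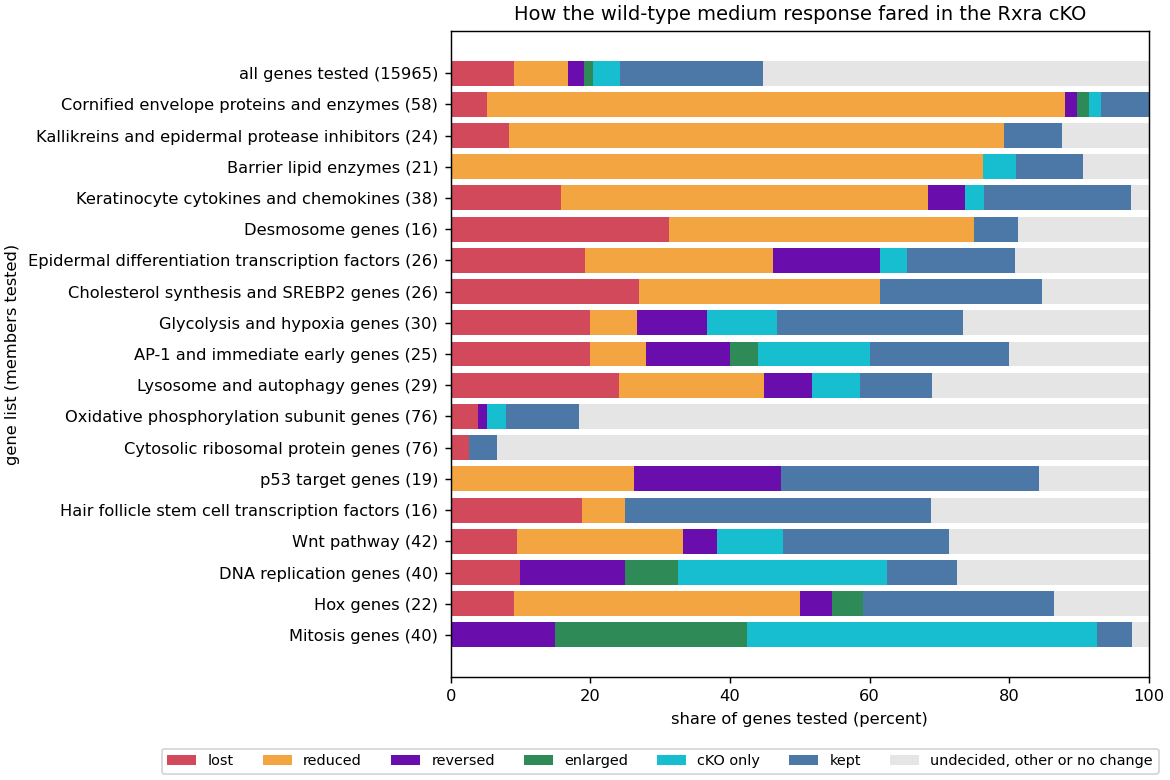
Share of the tested members of 18 gene lists (number in brackets), and of all genes tested, in each response class, in percent. Reduced responses (orange) make up most of the cornified envelope, kallikrein, barrier lipid and cytokine lists; changes in the cKO alone and enlarged falls make up most of the mitosis list, and the ribosomal protein list is nearly all in the gray class, which holds undecided, other and uncalled genes.

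Cell division genes went the other way. Of 40 mitosis genes, 37 had a positive and 0 a negative interaction, against 11.3% and 13.3% of all genes, and the positive count was 32 to 37 when each library was left out. Their median response was -0.14 in wild-type and -1.12 in the cKO. By class, 20 fell in the cKO alone, 11 had enlarged falls and 6 rose in wild-type and fell in the cKO. Between genotypes, 18 were higher and 5 lower in the cKO in FBS, while in atRA+PKCi 0 were higher and 37 lower. Mki67, the proliferation marker, chosen after its values were seen, stood at 208 and 177 CPM in FBS and 213 and 193 in atRA+PKCi for wild-type, and at 184 and 162 in FBS and 77.1 and 78.3 in atRA+PKCi for Rxra cKO. The 6 libraries other than those of the cKO in atRA+PKCi lay within one range, and the latter lay below it. Its response was 0.08 ± 0.10 in wild-type and -1.15 ± 0.10 in the cKO, with an interaction of 1.23 ± 0.14, edgeR adjusted p = 4.1e-04.

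Cep55, which completes abscission and is not on the mitosis list, was among the 3 falls in the cKO alone with the largest interaction at a mean of at least 10 CPM. It stood at 15.3 and 11.8 CPM in FBS and 14.5 and 10.7 in atRA+PKCi for wild-type, and at 20.6 and 13.2 in FBS and 3.27 and 1.45 in atRA+PKCi for Rxra cKO, with an interaction of 2.68 ± 0.47, edgeR adjusted p = 0.0037. Ncapg, a condensin subunit, held at 29.9 and 29.9 CPM and 30.1 and 28.6 in wild-type and fell from 37.9 and 34.8 to 13.5 and 12.3 in the cKO (interaction 1.46 ± 0.12, edgeR adjusted p = 6.0e-05). Cenpe, the kinetochore motor, and Kif23, a kinesin of the midzone, were reversed, with responses of 0.35 and 0.45 in wild-type and -1.26 and -0.95 in the cKO. Bub3, a spindle checkpoint protein, had the smallest interaction of the mitosis list, 0.25 ± 0.10, which was not called (95% interval 0.03 to 0.47).

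DNA replication genes followed less firmly. Of 40, 23 had a positive and 2 a negative interaction (62.5%, against 24.6% of all genes), with median responses of -0.02 and -0.55. Leaving out Rxra cKO FBS replicate 1 gave 14 positive calls, and leaving out replicates 1 and 2 of Rxra cKO atRA+PKCi in turn gave 11 and 13. Pola1, the catalytic subunit of the polymerase that primes replication, stood at 27.1 and 26.7 CPM in FBS and 36.3 and 38.5 in atRA+PKCi for wild-type, and at 44.8 and 40.5 in FBS and 21.8 and 22.7 in atRA+PKCi for Rxra cKO, rising in wild-type and falling in the cKO (interaction 1.42 ± 0.11, edgeR adjusted p = 5.4e-05). Mcm6, of the replicative helicase, was reversed with a smaller fall (0.56 and -0.30, interaction 0.86 ± 0.09, edgeR adjusted p = 3.0e-04). Ccne1, the cyclin of S phase entry, was an exception, with a wild-type fall of -0.90 ± 0.08 that was lost in the cKO (interaction -0.74 ± 0.11, edgeR adjusted p = 0.0018).

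Inhibitors of cyclin-dependent kinases moved in both directions. Cdkn2b, which encodes p15, stood at 30.8 and 32.2 CPM in FBS and 43.4 and 41.2 in atRA+PKCi for wild-type, and at 32.7 and 33.3 in FBS and 84.6 and 89.1 in atRA+PKCi for Rxra cKO. It rose in both genotypes, and the rise was larger in the cKO (interaction -0.97 ± 0.10, edgeR adjusted p = 2.0e-04). Cdkn1a, which encodes p21, fell from 392 and 371 CPM to 327 and 313 in wild-type and rose from 271 and 284 to 427 and 400.4 in the cKO (interaction -0.83 ± 0.10, edgeR adjusted p = 5.9e-04). Cdkn1c, which encodes p57, rose more in wild-type (2.43 against 1.38, interaction 1.05 ± 0.17, edgeR adjusted p = 0.0024).

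**Figure D4:**
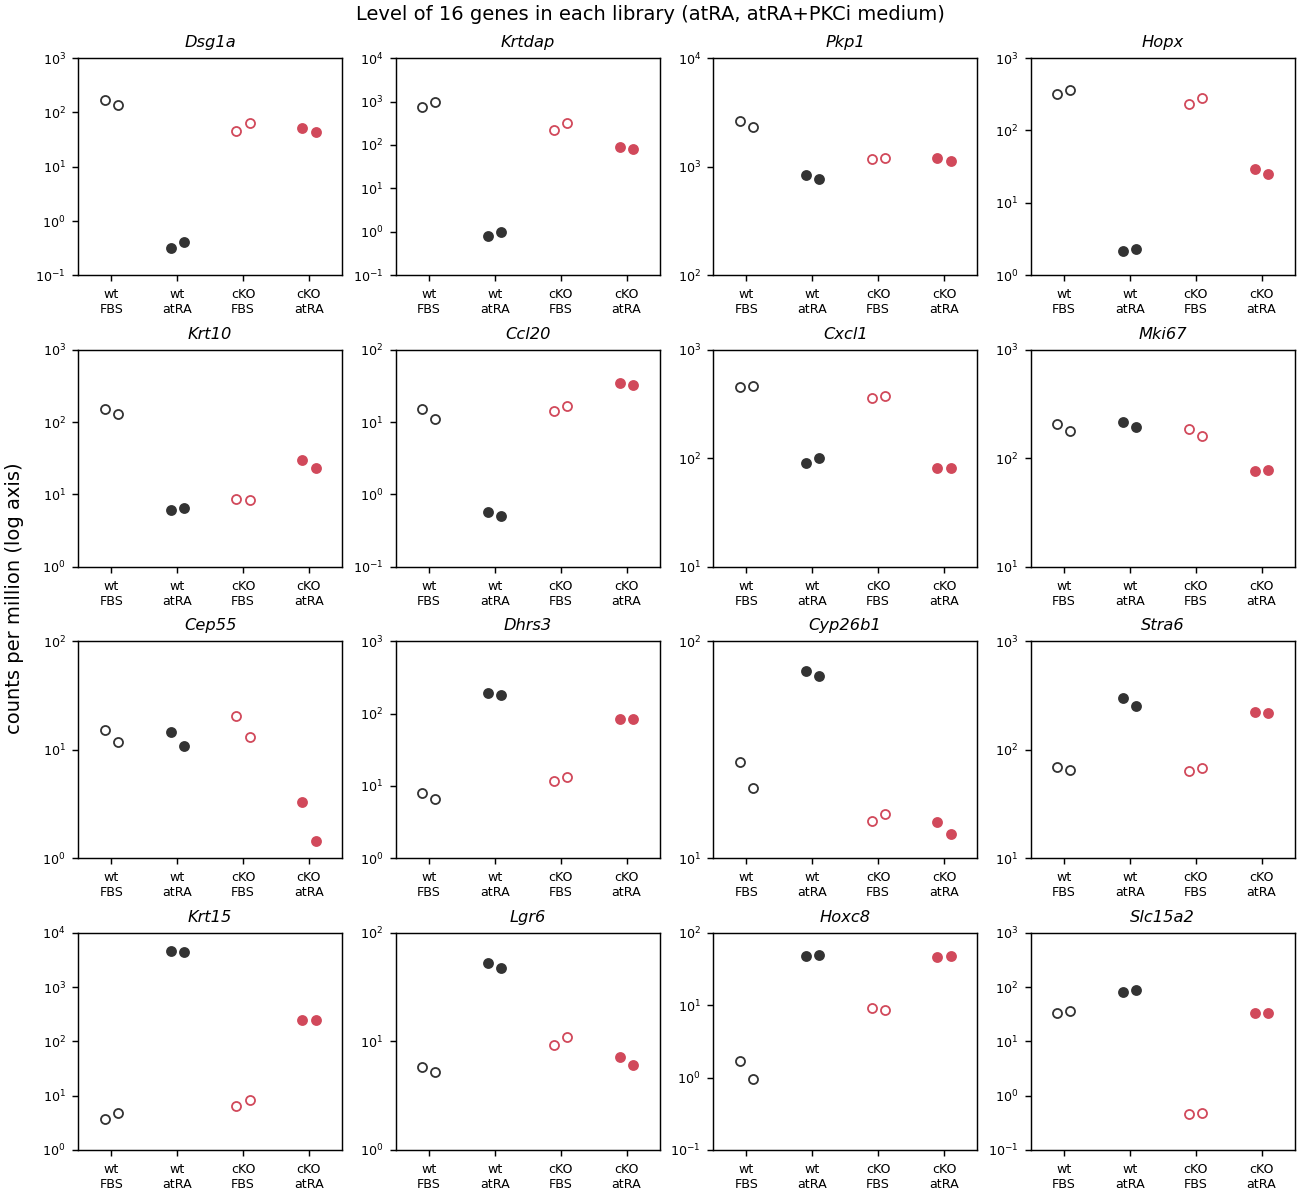
Level of 16 genes in each of the 8 libraries, in CPM on log axes; open symbols are FBS and filled symbols atRA+PKCi, black for wild-type and red for Rxra cKO, with 2 libraries per group. Dsg1a, Pkp1 and Cyp26b1 separate the media widely in wild-type alone, Hopx falls less in the cKO, Krt10 and Ccl20 move in opposite directions, Cxcl1 and Stra6 move alike, and Mki67 and Cep55 fall in the cKO alone.

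Genes of position along the body were the next set. Of 22 Hox genes tested, whose nested expression marks that position, 9 had a positive and 4 a negative interaction (59.1%, against 24.6% of all genes). Among the 22, 9 were rises that were reduced and 6 were rises that were kept. The positive count was 5 without wild-type atRA+PKCi replicate 1 or without either Rxra cKO atRA+PKCi library, and 5 by DESeq2. Hoxc8 (chr15:102990607-102994111) stood at 1.68 and 0.966 CPM in FBS and 48.1 and 49.3 in atRA+PKCi for wild-type, and at 9.06 and 8.49 in FBS and 46.7 and 48.4 in atRA+PKCi for Rxra cKO. The 4 atRA+PKCi libraries overlapped, and the cKO libraries were higher than the wild-type ones in FBS (5.19 against 2.44, interaction 2.75 ± 0.21, edgeR adjusted p = 5.0e-05). Hoxc5 and Hoxa5, classical retinoid-responsive genes of anterior position that were chosen after their values were seen, differed instead in atRA+PKCi, at 54.9 and 54.5 CPM against 30.4 and 31 for Hoxc5 and 64.9 and 59.7 against 20.1 and 20.9 for Hoxa5, with interactions of 1.18 and 1.16. Hoxb9 was reversed, falling from 19.5 and 17.6 CPM to 6.99 and 6.91 in wild-type and rising from 41.6 and 40.7 to 48.9 and 48.6 in the cKO (interaction -1.66 ± 0.11, edgeR adjusted p = 2.2e-05).

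Of 16 transcription factors of HFSCs, 4 had a positive and 0 a negative interaction (25%, near the 24.6% of all genes). Among the 16, 7 were rises that were kept. The positive count was 4 without wild-type FBS replicate 1 and 1 or 2 without each of the other 7 libraries, and the negative count was 3 without wild-type FBS replicate 2. Sox9, which marks these cells and drives the Cre of the cKO, had an interaction of 0.51 ± 0.16 (edgeR adjusted p = 0.048) that depended on single libraries: its adjusted p was 0.0033 without wild-type FBS replicate 1 and ran from 0.053 to 0.17 without each of the other 7.

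Signaling pathways were split in direction. Of 42 Wnt pathway genes, 12 had a positive and 8 a negative interaction (47.6%, against 24.6% of all genes). The positive count was lower without any single library other than wild-type FBS replicate 1, and was 8 by DESeq2. Lgr6 (chr1:134983301-135105276), an R-spondin receptor of the upper follicle, stood at 5.77 and 5.25 CPM in FBS and 53 and 47.4 in atRA+PKCi for wild-type, and at 9.24 and 11 in FBS and 7.18 and 6.0 in atRA+PKCi for Rxra cKO. The wild-type libraries in atRA+PKCi lay above the other 6, and those of the cKO were below their own FBS level, with responses of 3.18 ± 0.13 and -0.61 ± 0.13 and an interaction of 3.80 ± 0.19, edgeR adjusted p = 5.0e-06. Axin2, the usual readout of β-catenin activity, was chosen after its values were seen and stood at 6.13 and 4.91 CPM in FBS and 5.45 and 5.45 in atRA+PKCi for wild-type, and at 4.21 and 4.18 in FBS and 15.8 and 14.3 in atRA+PKCi for Rxra cKO. Of its groups only the cKO in atRA+PKCi stood apart, above the others, with an interaction of -1.87 ± 0.20, edgeR adjusted p = 3.0e-04. Among ligands, Wnt3a fell in wild-type (-3.40) and less in the cKO (-0.72, interaction -2.68 ± 0.24, edgeR adjusted p = 1.2e-04).

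In the TGF-β and BMP pathways, Tgfb2, a ligand, stood at 13.5 and 12.3 CPM in FBS and 1.54 and 1.71 in atRA+PKCi for wild-type, and at 2.73 and 2.98 in FBS and 5.92 and 4.88 in atRA+PKCi for Rxra cKO. It fell in wild-type (-2.99 ± 0.17) and rose in the cKO (0.92 ± 0.16), with an interaction of -3.91 ± 0.23, edgeR adjusted p = 1.3e-05. Id2, a BMP target, rose in wild-type from 114 and 130.4 CPM to 294 and 331, and the cKO libraries were at 56.6 and 65.7 in FBS and 67.7 and 66.2 in atRA+PKCi (interaction 1.22 ± 0.14, edgeR adjusted p = 4.5e-04). Sostdc1, which antagonizes BMP and Wnt, rose in both genotypes and more in the cKO (1.20 and 2.77, interaction -1.58 ± 0.25, edgeR adjusted p = 0.0023).

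Growth factor signaling was altered for single ligands and for immediate early genes. Of 25 AP-1 and immediate early genes, 12 had a negative and 3 a positive interaction (60%, against 24.6% of all genes). In FBS, 18 of them were lower and 2 higher in the cKO. Nr4a1, an immediate early nuclear receptor, stood at 34.3 and 27.9 CPM in FBS and 12.3 and 13.3 in atRA+PKCi for wild-type, and at 10.4 and 11.9 in FBS and 23.4 and 22 in atRA+PKCi for Rxra cKO. It fell in wild-type and rose in the cKO (interaction -2.31 ± 0.17, edgeR adjusted p = 4.2e-05). Ier2 did the same (-0.62 and 0.41, interaction -1.03 ± 0.10, edgeR adjusted p = 1.9e-04). Among EGF family genes, 6 of 15 had a negative and 2 a positive interaction (53.3%). Epgn, which encodes the EGF receptor ligand epigen, fell from 139 and 146 CPM to 11.1 and 11.7 in wild-type and from 166 and 194 to 55.8 and 49.6 in the cKO (interaction -1.87 ± 0.14, edgeR adjusted p = 3.9e-05). Etv4, an ETS factor downstream of ERK, fell more in the cKO (-3.11 against -1.68, interaction 1.43 ± 0.19, edgeR adjusted p = 9.3e-04), while Dusp5, a phosphatase that ERK induces, fell less (-1.36 against -2.97, interaction -1.61 ± 0.12, edgeR adjusted p = 4.9e-05). The inhibitor in the medium acts on conventional protein kinase C isoforms, of which 2 were tested. Prkca fell from 36.8 and 34.2 CPM to 14.9 and 13.7 in wild-type and from 25.6 and 23.4 to 16.8 and 15.7 in the cKO (interaction -0.72 ± 0.13, edgeR adjusted p = 0.0038). The other had a positive interaction of 1.62, called by edgeR but not by DESeq2.

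Adhesion genes other than those of desmosomes were called nearer to the background, with the exception of integrins. Of 15 tight junction genes, 2 had a positive and 3 a negative interaction (33.3%, against 24.6% of all genes). The positive count was 1 without either wild-type atRA+PKCi library, Rxra cKO FBS replicate 2 or Rxra cKO atRA+PKCi replicate 2. Of 29 hemidesmosome and basement membrane genes, 2 had a positive and 8 a negative interaction (34.5%), while 14 responses were kept. Their positive count was higher without wild-type FBS replicate 1, and the negative count was higher without wild-type FBS replicate 2. By role, 2 of 8 integrins had a positive and 5 a negative interaction (87.5%). The share called was 16.7% of 6 hemidesmosome genes and 13.3% of 15 basement membrane genes. Ocln, which encodes occludin of the tight junction strand, stood at 5.0 and 4.98 CPM in FBS and 20.4 and 19.9 in atRA+PKCi for wild-type, and at 10.2 and 12.7 in FBS and 13.5 and 12.8 in atRA+PKCi for Rxra cKO. The rise was lost in the cKO, whose libraries lay between the wild-type media (interaction 1.82 ± 0.17, edgeR adjusted p = 1.5e-04). Cldn1, the claudin that seals the epidermis, had responses of -3.30 and -1.24 (interaction -2.06 ± 0.21, edgeR adjusted p = 2.6e-04), while in CPM the fall was larger in the cKO, from 110.4 and 138 to 49.9 and 55.5 against 14.7 and 16.8 to 1.54 and 1.65. Itga6, the integrin that anchors basal cells through hemidesmosomes, stood at 1444 and 1270.0 CPM in FBS and 643 and 665 in atRA+PKCi for wild-type, and at 780.4 and 736 in FBS and 319 and 304 in atRA+PKCi for Rxra cKO. It fell in both genotypes, and its interaction of 0.23 ± 0.12 was not called (95% interval -0.04 to 0.50).

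Among 23 genes of epithelial-to-mesenchymal transition and motility, 4 had a positive and 8 a negative interaction (52.2%, against 24.6% of all genes). Mmp3, the matrix protease stromelysin, stood at 535 and 509.9 CPM in FBS and 0.0641 and 0.158 in atRA+PKCi for wild-type, and at 413 and 499 in FBS and 4.82 and 4.95 in atRA+PKCi for Rxra cKO. It fell in both genotypes, and the cKO libraries in atRA+PKCi lay above the wild-type ones (interaction -5.60 ± 0.33, edgeR adjusted p = 1.2e-05). Plaur, the urokinase receptor, fell more in the cKO, from 51.1 and 54.9 CPM to 11.3 and 12 against 22.2 and 22.5 to 13 and 11.6, and reached like levels in atRA+PKCi (interaction 1.33 ± 0.12, edgeR adjusted p = 1.4e-04). Hmga2, a chromatin protein of growing tissue from the list of fetal-type growth regulators, likewise fell more in the cKO (-3.57 against -2.49, interaction 1.07 ± 0.12, edgeR adjusted p = 3.1e-04).

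Metabolic lists moved by smaller amounts. Of 26 genes of cholesterol synthesis, 16 had a negative and 1 a positive interaction (65.4%, against 24.6% of all genes). Their median responses were -0.73 and -0.31. In FBS, 21 were lower and 1 higher in the cKO. Mvd, a decarboxylase of the mevalonate pathway, stood at 102 and 87.5 CPM in FBS and 44 and 38.6 in atRA+PKCi for wild-type, and at 26.2 and 25.3 in FBS and 26.4 and 28.5 in atRA+PKCi for Rxra cKO. The wild-type fall was lost in the cKO, whose libraries all lay below the wild-type ones (interaction -1.29 ± 0.14, edgeR adjusted p = 3.2e-04). Of 30 genes of glycolysis and hypoxia, 14 had a negative and 0 a positive interaction, with 9 negative without wild-type atRA+PKCi replicate 2, without Rxra cKO atRA+PKCi replicate 2 or with library totals alone, and 28 were lower in the cKO in FBS. Car12, a hypoxia-induced carbonic anhydrase, rose only in the cKO, from 129 and 134 CPM to 289 and 286, with 448 and 359.5 in FBS and 379.7 and 360.3 in atRA+PKCi in wild-type (interaction -1.26 ± 0.14, edgeR adjusted p = 4.0e-04). Vegfa, the vascular growth factor, fell in both genotypes (-0.94 and -1.13), with an interaction of 0.20 ± 0.11 that was not called (edgeR adjusted p = 0.24) but was without wild-type FBS replicate 1 (adjusted p = 0.031).

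Among partners and targets of RXR other than RARs, 2 of 19 had a positive and 8 a negative interaction (52.6%, against 24.6% of all genes). The positive calls did not hold without wild-type atRA+PKCi replicate 1, Rxra cKO FBS replicate 1 or either Rxra cKO atRA+PKCi library. Fabp4, a PPAR target, fell from 320.4 and 412 CPM to 10.6 and 9.98 in wild-type and from 157 and 190.0 to 14.5 and 16.7 in the cKO (interaction -1.67 ± 0.21, edgeR adjusted p = 6.6e-04). Abca1, the LXR target that exports cholesterol, rose in both genotypes (2.74 and 1.88), with an interaction of 0.86 ± 0.33 that was not called (edgeR adjusted p = 0.093) but was without wild-type FBS replicate 1 (adjusted p = 0.038). Thra, a thyroid hormone receptor, was reversed, with an interaction of -0.91.

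Ribosomal and respiratory chain genes had fewer calls than the background. Of 76 cytosolic ribosomal protein genes, 2 had a positive and 0 a negative interaction (2.63%, against 24.6% of all genes), with 4 positive without wild-type FBS replicate 2. Of 76 subunits of oxidative phosphorylation, 1 had a positive and 5 a negative interaction (7.89%), with 11 negative without wild-type FBS replicate 1 and 2 without wild-type atRA+PKCi replicate 1 or either Rxra cKO atRA+PKCi library. Of 32 genes of the ATF4 and unfolded protein responses, 2 had a positive and 5 a negative interaction (21.9%, near the background), and 16 were falls that were kept. The negative count was 3 without either Rxra cKO atRA+PKCi library.

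The genes with the largest interactions in each class among those above the level set by the naming rule included enzymes, transporters and surface proteins. Car2, a carbonic anhydrase, stood at 2.15 and 2.47 CPM in FBS and 31.7 and 30.7 in atRA+PKCi for wild-type, and at 4.93 and 5.54 in FBS and 6.23 and 6.11 in atRA+PKCi for Rxra cKO, a rise lost in the cKO (interaction 3.52 ± 0.17, edgeR adjusted p = 4.6e-06). Btn1a1, a butyrophilin, rose from 0.255 and 0.155 CPM to 39.5 and 38.4 in wild-type and from 1.58 and 1.49 to 5.08 and 4.84 in the cKO, and Ngfr, the low-affinity neurotrophin receptor, from 0.328 and 0.618 to 53.7 and 50.6 and from 0.575 and 0.907 to 1.28 and 1.71 (interactions 5.84 and 5.81). Slc15a2, a peptide transporter, stood at 33.3 and 35.7 CPM in FBS and 80 and 88.8 in atRA+PKCi for wild-type, and at 0.468 and 0.486 in FBS and 33.8 and 33.7 in atRA+PKCi for Rxra cKO. Its rise was larger in the cKO on the log2 scale (interaction -4.84 ± 0.16, edgeR adjusted p = 1.7e-06), but larger in wild-type in CPM, since the cKO started near 0. Saa3, an acute-phase protein, rose only in the cKO, from 3.67 and 3.82 CPM to 40.3 and 40.9, with less than 1 CPM in every wild-type library (interaction -3.86 ± 0.25, edgeR adjusted p = 2.0e-05), as did Prss23, a serine protease, from 35.1 and 39.7 to 155 and 152 (interaction -1.86 ± 0.11, edgeR adjusted p = 1.4e-05). Clcf1, a cytokine of the IL-6 family, fell more in the cKO, from 45 and 42.5 CPM to 7.41 and 6.59 against 27.9 and 22.9 to 15.3 and 14.4 (interaction 1.86 ± 0.16, edgeR adjusted p = 8.8e-05). Among the kept responses with the largest size, Sesn1, a stress-induced regulator of growth, rose from 30.9 and 33.1 CPM to 165 and 173 in wild-type and from 21 and 21.3 to 92.1 and 89.6 in the cKO, with an interaction of 0.30 ± 0.10 (edgeR adjusted p = 0.051) that was called without wild-type FBS replicate 2 (adjusted p = 0.027). Klra4, annotated as a killer cell lectin-like receptor, stood at 39.7 and 54.5 CPM in FBS and 141 and 146 in atRA+PKCi for wild-type, and at 100.4 and 115 in FBS and 32.4 and 33.2 in atRA+PKCi for Rxra cKO. It rose in wild-type and fell in the cKO (interaction 3.32 ± 0.19, edgeR adjusted p = 1.2e-05), and so did B3gnt3, a glycosyltransferase that extends mucin-type glycans (1.54 and -0.82, interaction 2.36 ± 0.20, edgeR adjusted p = 9.0e-05).

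The reversed class rests on 3 tests at once, so its members were traced through the 8 fits that each left out a library. Krt1, Krt10, Krt5, Tchh, Maf, Ccl20, Tgfb2, Nr4a1, Ier2, Id1, Cenpe, Kif23, Pola1, Klra4 and B3gnt3 stayed reversed in all 8. Cdkn1a, Cx3cl1, Hoxb9, Krt18, Lgr6, Mcm6, Ppbp, Thra and Zfp750 stayed in it in 5 to 7 of the 8, since one of their 2 responses did not pass in the others, while the interaction passed in all 8 for each of them.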

How the data were processed

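RNA-seq reads of the 8 bulk libraries were quantified by the authors with Salmon 1.4.0 against mm10, as the submitters' processing notes list them, and summed to genes with tximport, as the study's methods state. The deposited table holds estimated counts per gene symbol for 51906 genes, not normalized and not pooled, and between 18.2% and 20.8% of the values of a library were not whole. Here these estimated counts were rounded to whole numbers. No column of per-sample values was left unused in that table. A second deposited table of the same libraries after normalization by the authors and the single-cell files of the series were not used here.

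Genes were kept by filterByExpr with the 4 groups, which left 15965, and libraries were scaled by TMM. The quasi-likelihood test of edgeR 4.0.16 (R 4.3.3) was fitted with one mean per group over all 8 libraries, with 4 residual degrees of freedom, and p-values were adjusted by Benjamini-Hochberg over all genes tested, at a threshold of 0.05. The interaction is (wild-type atRA+PKCi minus wild-type FBS) minus (Rxra cKO atRA+PKCi minus Rxra cKO FBS). Intervals are 95% intervals of that contrast. The p-values rest on the spread between the 2 libraries of a group, pooled over the 4 groups and moderated across genes. The main fit held no term for the mouse, so the libraries of a mouse in both media entered as independent. CPM are rounded counts divided by the TMM-scaled library size and brought to a common scale. Total counts ran from 25150265 to 35879777 per library.

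The members and the 50 gene lists were chosen with earlier results of these data known. Genes named in the text were taken by a rule: in each class and direction the 3 with the largest interaction (for kept, the largest wild-type response) at a mean of at least 10 CPM; in each list the members with the lowest and highest interaction at a mean of at least 5 CPM and any reversed member; receptor and retinoid genes; and genes the study names for these cultures. The rule gave 195 genes, and Axin2, Cxcl1, Hoxa5, Hoxc5, Krtdap, Mki67, Pkp1 and Ppbp were added after their values were seen; a few genes are not reported here.

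The labels name mouse 1 or mouse 2 as the source of each library, with the same numbers in both media, and within a genotype a number was read as 1 animal. Deviations of the 2 media from their group means correlated at 0.135 in wild-type and at -0.000821 in Rxra cKO over genes, and those of equal numbers across genotypes, which are different animals, at 0.103 in FBS and 0.00362 in atRA+PKCi. A fit with the mouse as a block was an alternative. The others were DESeq2 1.42.0, RLE size factors, library totals alone, no filter on low counts, a stricter threshold, a difference of differences in CPM and leaving out each library. Gene positions are from GENCODE M21 for GRCm38 and promoter windows from RefSeq for GRCm38.p6. Figures were drawn with matplotlib 3.10.9.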

Additional observations from a re-analysis of the deposited data

Results flagged for a closer look

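With 2 libraries per group a single outlying library could not be looked for, so every result listed here is one whose effect differed between genotypes by the test of the interaction itself. These were the 1807 genes with a positive and the 2117 with a negative interaction, and among them the 183 genes that rose in wild-type and fell in Rxra cKO HFSCs and the 180 that did the opposite. Of the 195 genes named by rule, 158 had a called interaction, against 24.6% of all genes. The rule picks many genes by the size or call of the interaction, so this share follows from the choice.

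Of the genes with the largest reversed responses, Krt1 had an interaction of -8.61, Krt10 of -6.11 and Ccl20 of -5.72 on the log2 scale, falling in wild-type and rising in the cKO. Lgr6 had an interaction of 3.80, Klra4 of 3.32 and B3gnt3 of 2.36, rising in wild-type and falling in the cKO. In atRA+PKCi the cKO libraries lay above the wild-type ones for Krt1, Krt10 and Ccl20 and below them for Lgr6 and Klra4. For B3gnt3 they lay above in both media, at 19.6 and 19.9 CPM against 3.28 and 2.59 in FBS and 11.4 and 11 against 9.46 and 7.70 in atRA+PKCi.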

How the results depend on the processing

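Of the 3924 genes with a called interaction, 2148 (54.7%) held their call in each of the 8 fits without a library, and of the 165 called genes named in the text or by rule, 147 were. Counts over these 8 fits ran from 950 to 1921 for positive and from 1501 to 2495 for negative interactions; for rises and falls in turn, lost responses ran from 391 to 676 and from 603 to 812, reduced from 188 to 508 and from 528 to 947, reversed from 92 to 220 and from 113 to 265, enlarged from 33 to 85 and from 67 to 128, kept from 1357 to 1777 and from 1194 to 1591, undecided from 790 to 1792 and from 591 to 1468, and changes in the cKO alone from 144 to 360 and from 175 to 419. Many of the named genes were picked for a large interaction, so the share of them that held is no measure for all genes. Each such fit leaves 1 group with a lone library, which is assumed to vary like the others. At an adjusted p under 0.01 and an absolute log2 change over 1, 440 positive and 694 negative interactions remained, with 171 and 324 lost, 83 and 247 reduced, 8 and 19 reversed, 7 and 12 enlarged, 448 and 475 kept, 664 and 502 undecided, and 46 and 71 in the cKO alone. DESeq2 called 1265 positive and 1988 negative, with 468 lost, 267 reduced and 112 reversed rises. Library totals alone gave 1066 lost and 646 reduced rises, and 454 lost, 80 enlarged, 988 kept and 546 undecided falls. RLE size factors gave 1649 positive and 2270 negative interactions, and no filter 1995 and 2551. With the mouse as a block, the paired fit called 1631 positive and 1984 negative, and of 203 named genes it ended the call of Dgat1 (adjusted p = 0.072), added those of Krt8 (0.045), Prl8a1 (0.030) and Tcf7l1 (0.028), and changed no other call.

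In CPM, where the contrast is a difference of differences, the sign turned for Aldh1a3 (228), Cldn1 (57.5), Ddit4l (-0.997), Dhrs9 (50.1), Fst (1.002), Itgb8 (-7.99), Plekhb1 (-0.45) and Slc15a2 (16.6); genotypes that start from unequal levels can differ in sign between the scales. Among named genes with a called interaction, no other turned under any setting. Sign changes of genes without a call were not counted. The median interaction of a list turned positive with library totals alone for 9 of the 50 lists: retinoid receptors and partners (0.055), hemidesmosome and basement membrane genes (0.061), p53 targets (0.12), hair lineage genes (0.0001), protein kinase C isoforms (0.045), oxidative phosphorylation (0.051), NRF2 targets (0.024), ATF4 and unfolded protein response genes (0.012) and epithelial-to-mesenchymal genes (0.014). It turned with RLE size factors for retinoid uptake, binding and metabolism (-0.017), ERK feedback genes (-0.010) and immune markers (-0.011), and with the mouse as a block for retinoid uptake, binding and metabolism (-0.020), p53 targets (0.0027) and immune markers (-0.0049). Leaving out a library moved it across 0 for 18 of the 50 lists: retinoid receptors and partners (-0.182 to 0.105), retinoid uptake, binding and metabolism (-0.349 to 0.252), HFSC transcription factors (-0.031 to 0.116), HFSC markers (-0.271 to 0.0086), hemidesmosome and basement membrane genes (-0.279 to 0.127), ERK feedback genes (-0.330 to 0.347), the Wnt (-0.063 to 0.215), TGF-β (-0.090 to 0.101), Hedgehog (-0.340 to 0.0079) and Notch pathways (-0.066 to 0.234), FGF ligands and receptors (-0.362 to 0.398), hair lineage genes (-0.186 to 0.010), p53 targets (-0.096 to 0.052), oxidative phosphorylation (-0.177 to 0.045), ribosomal proteins (-0.102 to 0.221), interferon-stimulated genes (-0.082 to 0.504), melanocyte markers (-0.031 to 0.402) and immune markers (-0.272 to 0.174). The cause of these shifts was not tested.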

Other observations

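Stress and antioxidant genes held reversed responses that the lists above do not cover. Of 32 NRF2 target genes, 8 had a positive and 9 a negative interaction (53.1%, against 24.6% of all genes). The positive count was lower without wild-type atRA+PKCi replicate 1 or either Rxra cKO atRA+PKCi library. Gclc, the rate-limiting subunit of glutathione synthesis, stood at 132 and 121 CPM in FBS and 262 and 261 in atRA+PKCi for wild-type, and at 153 and 135 in FBS and 90.5 and 92.6 in atRA+PKCi for Rxra cKO. It rose in wild-type and fell in the cKO, with no overlap between media in either genotype (interaction 1.71 ± 0.11, edgeR adjusted p = 2.3e-05). Txnrd1, thioredoxin reductase, did the same (0.69 and -0.49, interaction 1.17 ± 0.14, edgeR adjusted p = 5.1e-04). Hmox1, heme oxygenase, fell in both genotypes and less in the cKO (-2.76 and -1.54, interaction -1.22 ± 0.14, edgeR adjusted p = 4.1e-04). Of 19 p53 target genes, 4 had a positive and 5 a negative interaction (47.4%), 7 rises were kept and 4 falls were reversed. Pmaip1, which encodes the pro-apoptotic protein Noxa, went from 187 and 202 CPM to 134 and 147 in wild-type and from 232 and 254 to 331 and 327 in the cKO (interaction -0.91 ± 0.11, edgeR adjusted p = 6.3e-04).

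Of 29 lysosome and autophagy genes, 14 had a negative and 3 a positive interaction (58.6%, against 24.6% of all genes). The negative count was lower without replicate 2 of wild-type atRA+PKCi or replicate 1 of Rxra cKO atRA+PKCi, and was 7 with library totals alone. Ulk1, the kinase that starts autophagy, and Neu1, lysosomal sialidase, were reversed, with responses of -0.50 and -0.45 in wild-type and 0.51 and 0.43 in the cKO; Ulk1 stayed reversed in 7 of the 8 fits without a library. Atg9b, an autophagy scramblase, stood at 76.4 and 71.1 CPM in FBS and 253 and 239 in atRA+PKCi for wild-type, and at 123 and 139 in FBS and 128 and 128 in atRA+PKCi for Rxra cKO, a rise that was lost in the cKO (interaction 1.77 ± 0.11, edgeR adjusted p = 1.9e-05). Cryab, a small heat shock protein, went from 182 and 235 CPM to 9.11 and 8.71 in wild-type and from 45.5 and 59.6 to 41.7 and 39.4 in the cKO (interaction -4.17 ± 0.22, edgeR adjusted p = 7.4e-06), and C1ra, a complement protease, from 23.3 and 23.2 to 2.08 and 1.58 and from 11.7 and 12.4 to 11.7 and 10.4 (interaction -3.54 ± 0.19, edgeR adjusted p = 7.4e-06). Gcnt1, a glycosyltransferase that branches O-glycans, was raised only in wild-type, from 1.39 and 1.85 CPM to 16.5 and 15.6, while all 4 cKO libraries lay above these, at 24.7 and 25.5 in FBS and 23.6 and 24.9 in atRA+PKCi (interaction 3.36 ± 0.17, edgeR adjusted p = 5.5e-06).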
